A study of Homo sapiens with 18 samples.

Results

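The metallothionein genes were followed across osteosarcoma Saos-2 cells grown in different ways. The members were MT1A, MT1E, MT1F, MT1G, MT1H, MT1M, MT1X and MT2A, chosen by gene name. Of these 8 genes, 5 had a row among the 50119 genes measured, namely MT1A, MT1E, MT1F, MT1X and MT2A. MT1G, MT1H and MT1M were not analysed here. MT2A and MT1E were among the abundant transcripts in all 18 libraries, MT1X was present at a low level, and the MT1A and MT1F rows were at or near 0. The MT1F row lists only a transcript with a retained intron.

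Metallothioneins are small proteins, rich in cysteine, that hold zinc, copper and cadmium through the sulphur of their cysteines and so buffer the free metal in a cell. When zinc or cadmium rises, the zinc-finger factor MTF1 binds short metal response elements in their promoters and switches them on, together with SLC30A1, the exporter that removes zinc from the cell. Glucocorticoids, oxidants and other stresses can also induce them, and the proteins can bind platinum drugs, which are used against osteosarcoma.

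Saos-2 is an established human osteosarcoma line of the osteoblast lineage, and all groups were made from it. RNA sequencing covered 6 groups with 3 libraries each. D-2 were cells in ordinary 2D culture, D-3 were 3D cells mixed into Matrigel, and DP-3 was 3D cell-printed tissue made from a methacrylated gelatin and alginate bioink that was cross-linked with blue light and calcium chloride. These 3 groups were sampled at day 14, and printed tissue was also sampled at day 1 (DP-3 day 1). FIT was fresh tumor tissue from Saos-2 cells implanted under the skin of 4-week-old female BALB/c nude mice, labelled Day14 and not cultured, and IT was pieces of such tumors kept on Matrigel for 14 days. No group carried a further treatment or genetic change. Tumors were divided between IT and FIT, nude mice keep host stroma and innate immune cells, and the labels do not name the animal or culture of a library, so p-values measure only the spread between these libraries. DP-3 day 1 differs from D-2 in both the culture method and the day, which cannot be told apart.

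Library totals ran from 23721666 to 79082786 estimated counts, and the shallowest library, FIT replicate 3, was followed by one of 50327345. About 4 estimated counts were assumed to stand for 1 read pair, because 33.3% of low counts were multiples of 4, where 25% would be by chance. On that basis 12 counts (3 read pairs) were taken as the limit below which a gene was not distinguished from 0. That limit covers counting error only. Replicates of a group differed by 11.8 to 104 times the counting noise per gene, and no pair of libraries had identical counts. This does not show whether replicates came from separate cultures, since estimated counts vary for other reasons than counting. Of 10 osteoblast lineage markers, 4 to 6 had a mean of 1 FPKM (fragments per kilobase and sequencing depth) or more in each group. The defining markers IBSP, in all groups but DP-3 day 1, and SP7, in D-2 and DP-3, were at 0.

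The deposited rows lie on the plus strand of chromosome 16, in the human metallothionein cluster. MT2A is first (chr16:56608584-56609497), followed by MT1E (chr16:56625475-56627112), MT1A (chr16:56638666-56640087), MT1F (chr16:56657731-56660698) and MT1X (chr16:56682470-56684196). With the pseudogene rows MT1L (chr16:56617476-56618818) and MT1JP, 7 metallothionein rows lay within 75613 bp. The coordinates are those of the GRCh38 assembly, as read by comparison with GENCODE release 29. The coding sequences of the 3 members with solid expression are shown because their likeness bears on how reads were divided between them. They were taken from the GENCODE transcripts, 5′ to 3′, with the cysteine codons in capitals.
MT2A: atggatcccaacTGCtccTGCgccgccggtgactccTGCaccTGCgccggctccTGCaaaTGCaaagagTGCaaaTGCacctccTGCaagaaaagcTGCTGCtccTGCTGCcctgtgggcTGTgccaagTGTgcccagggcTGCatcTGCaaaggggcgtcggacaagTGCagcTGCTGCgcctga
MT1E: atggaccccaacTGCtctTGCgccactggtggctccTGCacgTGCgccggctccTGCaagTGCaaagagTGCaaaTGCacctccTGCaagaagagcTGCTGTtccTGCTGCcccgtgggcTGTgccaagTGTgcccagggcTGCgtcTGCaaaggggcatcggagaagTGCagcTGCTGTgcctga
MT1X: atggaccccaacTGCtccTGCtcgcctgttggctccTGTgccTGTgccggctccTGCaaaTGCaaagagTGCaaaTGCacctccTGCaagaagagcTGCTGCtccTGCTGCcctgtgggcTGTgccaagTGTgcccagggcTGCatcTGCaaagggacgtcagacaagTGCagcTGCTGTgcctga

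Each coding sequence had 186 bases, of which 20 of the 61 amino acid codons encode cysteine, 32.8%. All 20 cysteine codons stood at the same place in the 3 genes. MT2A was identical to MT1E at 172 of 186 bases (92.5%) and to MT1X at 172 of 186 bases (92.5%), and MT1E and MT1X were identical at 169 (90.9%). Over the whole transcripts the likeness was smaller. Of all 50-base stretches, 7.10% in MT1E, 3.64% in MT1X and 3.02% in MT2A occurred in another metallothionein, mostly MT1G, and no 100-base stretch was shared. How reads that match more than one of these genes were divided is not given in the sources used here, so small differences between the members are uncertain.

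The promoters of MT2A and MT1X, the members with both a row and an entry in the RefSeq table, are shown for the metal response elements they carry. Each holds the 250 bases before the start site on the plus strand of GRCh38.p14, with matches to the metal response element core in capitals. The core was searched as TGCACNC or TGCGCNC on both strands.
MT2A promoter, chr16:56608334-56608583: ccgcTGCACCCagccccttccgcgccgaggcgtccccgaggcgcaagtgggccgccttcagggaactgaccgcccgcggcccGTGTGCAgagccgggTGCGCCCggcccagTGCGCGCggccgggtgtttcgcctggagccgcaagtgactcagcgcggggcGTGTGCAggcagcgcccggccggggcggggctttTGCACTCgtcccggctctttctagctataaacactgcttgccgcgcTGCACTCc
MT1X promoter, chr16:56682220-56682469: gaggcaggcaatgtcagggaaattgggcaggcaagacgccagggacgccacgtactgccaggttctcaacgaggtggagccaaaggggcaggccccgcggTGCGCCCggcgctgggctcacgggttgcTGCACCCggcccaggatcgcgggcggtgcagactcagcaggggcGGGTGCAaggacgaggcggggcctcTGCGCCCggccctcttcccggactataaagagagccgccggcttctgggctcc

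MT2A held 7 matches, from positions -246 to -2 before the start, and MT1X held 4, from -150 to -47. At least 1 match was present in 24.8% of 35116 promoters of the same length, at least 4 in 0.37% and at least 7 in 0.0313%. Each promoter also had 1 match to TGACNNNGC, the core of the antioxidant response element, which 10.9% of promoters held. Each had 1 TATAAA, which 10.7% held. The matches to these 3 motifs did not overlap in either promoter. A match describes the letters only and does not show binding.

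MT2A, usually the main metallothionein of human cells, was the most abundant member in all 18 libraries, and its rank by FPKM lay between 43 and 111 of all genes. In D-2 the 3 libraries had 375, 399.9 and 391 FPKM, and in D-3 285, 372 and 367. DP-3 had 564, 422 and 399 FPKM, and DP-3 day 1 had 337, 330.2 and 315. IT had 216, 215 and 456 FPKM, while FIT had 402, 327 and 222. The group means (± SD, n = 3) were highest for DP-3 (461 ± 89.5) and D-2 (389 ± 12.5), followed by D-3 (341 ± 48.4), DP-3 day 1 (328 ± 11.1), FIT (317 ± 90.2) and IT (295 ± 139). In this order only D-2 and D-3 were neighbours whose libraries did not overlap. The highest group mean was 1.56 times the lowest, and 34.1% of the 12373 genes with a mean of at least 1 FPKM had a smaller ratio.

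MT1E, a functional member of the MT1 subfamily, was lowest in printed tissue at day 1. The 3 DP-3 day 1 libraries had 42.5, 43.8 and 42.6 FPKM, below all the other 15 libraries. These 3 libraries also had more genes at 0.1 FPKM or more, 24694 to 24791 against 17716 to 22322 in the other 15. This library difference cannot be told apart from the group, and its part in the MT1E level was not tested. DP-3 at day 14 had 112, 86.0 and 69.4 FPKM, D-2 had 84.0, 85.8 and 91.4, and D-3 had 74.7, 98.1 and 83.1. The tumor groups lay in the same range, with 57.2, 74.0 and 71.6 FPKM in IT and 91.1, 81.2 and 49.4 in FIT. The means (± SD, n = 3) were 89.1 ± 21.3 in DP-3, 87.1 ± 3.89 in D-2, 85.3 ± 11.9 in D-3, 73.9 ± 21.8 in FIT, 67.6 ± 9.10 in IT and 43.0 ± 0.708 in DP-3 day 1. The step from IT to DP-3 day 1 was the only one without overlap between neighbours. The highest mean was 2.07 times the lowest, and 66.0% of genes had a smaller ratio.

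MT1X, which is also inducible by metals, was lower by more than an order of magnitude than MT2A. It was highest in D-3, with 22.6, 14.1 and 17.7 FPKM. D-2 had 8.21, 7.19 and 8.65 FPKM, DP-3 had 9.46, 7.68 and 8.90, and DP-3 day 1 had 7.61, 7.93 and 10.8. In IT a single library stood apart, with 7.80, 7.84 and 26.3 FPKM, and FIT had 9.79, 7.46 and 3.50. The means (± SD, n = 3) were 18.1 ± 4.26 in D-3, 13.98 ± 10.7 in IT, 8.80 ± 1.78 in DP-3 day 1, 8.68 ± 0.913 in DP-3, 8.02 ± 0.747 in D-2 and 6.92 ± 3.18 in FIT. All neighbours in this order overlapped. The highest mean was 2.62 times the lowest, and 79.4% of genes had a smaller ratio.

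MT1A was at 0 in 16 of 18 libraries. The remaining 2, both of D-3, had 19 counts (0.628 FPKM) in replicate 1 and 6 counts (0.180 FPKM) in replicate 3. MT1F was also at 0 in 16 libraries, with 16 counts (0.136 FPKM) in DP-3 day 1 replicate 3 and 4 counts (0.0278 FPKM) in IT replicate 3. Its row lists only a transcript with a retained intron, so it does not measure the usual MT1F mRNA. Neither gene passed the filter of 0.1 FPKM in 3 of the 6 libraries in any comparison, and neither was tested.

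**Figure D1:**
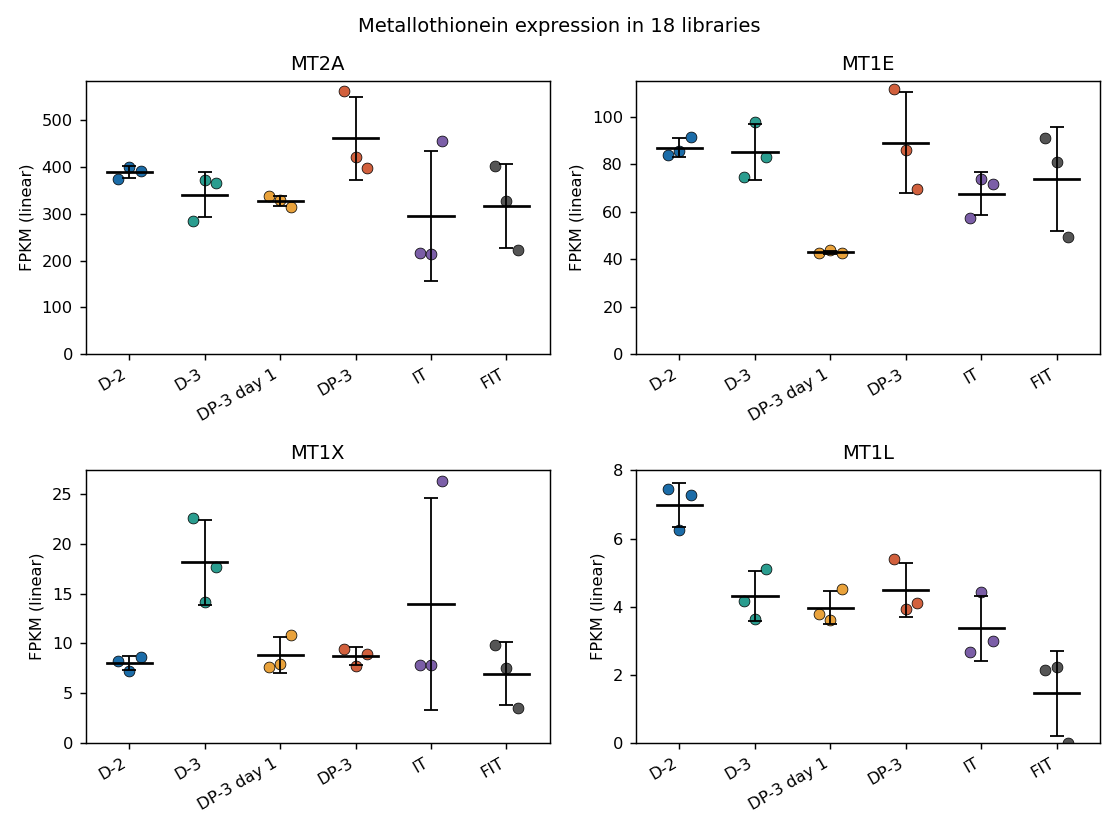
FPKM (linear axis from 0) of MT2A, MT1E, MT1X and the pseudogene MT1L in the 18 libraries, as points by group, with the group mean as a horizontal bar and the SD (n = 3) as an error bar. The DP-3 day 1 libraries have the 3 lowest MT1E values, the D-3 libraries of MT1X (14.1 to 22.6) lie above all others but IT replicate 3 (26.3), and FIT replicate 3 is the lowest FIT library in all 4 panels.

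The summed level of the 5 members lay between 275 and 685 FPKM, and MT2A supplied 72.4% to 87.1% of it. The ratio of MT1E to MT2A FPKM within a library does not depend on how libraries are scaled. It was 0.126, 0.133 and 0.135 in DP-3 day 1, against 0.157 to 0.345 in the other 15 libraries. DP-3 at day 14 had ratios of 0.198, 0.204 and 0.174, below those of D-2 (0.224, 0.215 and 0.234). MT1X relative to MT2A was 7.91%, 3.796% and 4.82% in D-3 and 3.62%, 3.65% and 5.77% in IT, and at most 3.44% in the other 12 libraries. The IT libraries therefore all had more MT1X relative to MT2A than the FIT libraries (2.44%, 2.28% and 1.58%), although their MT1X levels overlapped. These ratios are descriptions, since 3 libraries against 3 cannot reach an exact two-sided permutation p below 0.10.

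**Figure D2:**
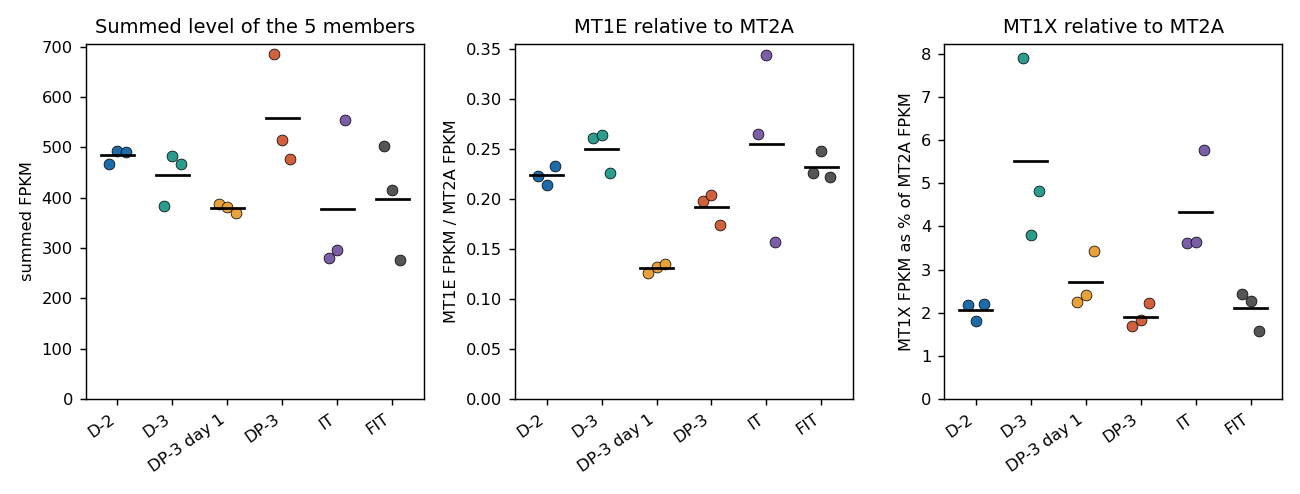
Summed FPKM of the 5 members (left), the ratio of MT1E to MT2A FPKM (middle) and MT1X FPKM as a percentage of MT2A FPKM (right), all on linear axes from 0. Points are libraries by group and bars are group means. The DP-3 day 1 ratios of MT1E to MT2A (0.126 to 0.135) lie below those of all other libraries, and the MT1X percentage is highest in D-3 and IT.

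Differences were tested with edgeR's quasi-likelihood test on the estimated counts, and a gene was called when its Benjamini-Hochberg adjusted p over all genes tested was below 0.05 and its fold change at least 2. Over 8 comparisons and the 3 members tested, 24 tests were made. Of these, 2 were calls, both of MT1E, 7 had an adjusted p below 0.05 at any fold, and in 8 the libraries of the groups did not overlap. Over all genes, 0.0% to 18.5% were called, depending on the comparison. An adjusted p below 0.05 was reached by 0.0% to 45.7%, and 20.6% to 60.4% did not overlap. The member counts are thus not set apart from those of other genes. Fold changes below are on the log2 scale of counts scaled by TMM (trimmed mean of M-values), with the SE and n = 3 per group.

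The printed tissue was followed from day 1 to day 14. MT1E was 2.49-fold higher at day 14 (1.31 ± 0.15 SE, adjusted p = 0.00282), from a mean of 43.0 to 89.1 FPKM, with all day 14 libraries above all day 1 libraries. MT2A was 1.69-fold higher (0.76 ± 0.13 SE, adjusted p = 0.00904), also without overlap but under the 2-fold threshold. MT1X had an adjusted p of 0.378 with a log2 difference of 0.25, and its 95% interval ran from 0.928-fold to 1.52-fold. In this comparison 7.56% of 20774 genes were called, 1.81% as higher, 22.1% had an adjusted p below 0.05, and 45.2% did not overlap. MT1E was the 1 call among the 3 members, and MT1E and MT2A were the 2 without overlap.

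DP-3 day 1 was set against D-2, the ordinary culture. MT1E was 2.51-fold lower (-1.33 ± 0.054 SE, adjusted p = 1.94e-05), and MT2A was 1.47-fold lower (-0.56 ± 0.047 SE, adjusted p = 0.00017). Neither gene overlapped between the groups. MT1X had a log2 difference of -0.18 (adjusted p = 0.409). The background was 17.2% of 20269 genes called, 4.13% as lower, with 45.7% at an adjusted p below 0.05 and 60.4% without overlap. In the single fit of all 18 libraries MT2A had an adjusted p of 0.126 here and 0.057 in the comparison of the days, and the MT1E calls held. Over the other settings that used all libraries, the adjusted p of MT2A in the comparison of the days reached 0.11.

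The scaling moved the median log2 difference of all genes by more than 0.1 in several comparisons. From TMM to FPKM it moved from 0.09 to 0.35 for DP-3 day 1 against D-2, from -0.06 to -0.29 for DP-3 against DP-3 day 1, and from 0.11 to 0.30 for D-3 against D-2. The share of calls that were higher moved with it, from 76.0% to 93.3%, from 23.9% to 6.67% and from 78.6% to 91.6%. Against FIT the median moved from -0.09 to -0.19 for D-2, from 0.01 to 0.12 for DP-3 day 1 and from -0.06 to -0.15 (with library totals, to -0.19) for DP-3. The share of calls that were higher moved there from 26.2% to 17.1%, from 57.3% to 72.9% and from 34.4% to 20.7%. With limma on log2(FPKM + 0.1) MT1E fell by 1.02 on the log2 scale from D-2 to DP-3 day 1 and was 1.02 higher at day 14, so it stayed just past 2-fold. On that scale MT2A differed by -0.25 and 0.48, and MT1X turned to 0.12 and -0.01. MT1E thus stayed below the median of all genes at day 1 on both scales.

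MT1E was also lower in DP-3 day 1 than in FIT, by 1.86-fold (-0.89 ± 0.22 SE, adjusted p = 0.046), without overlap and under the 2-fold threshold. Without the shallow FIT replicate 3 the log2 difference was -1.12 (adjusted p = 0.00099), and MT1E was then called. In the other 5 fits without 1 library the adjusted p was above 0.05, at most 0.152, and with limma on log2(FPKM + 0.1) it was 0.146. MT2A differed by -0.06 and MT1X by 0.23, with adjusted p of 0.9 and 0.761, and MT2A turned to 0.09 on the FPKM scale. In this comparison 5.03% of 21869 genes were called, 10.1% had an adjusted p below 0.05 and 34.0% did not overlap.

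D-3 against D-2 compares 3D with 2D culture at the same day. MT1X was 1.897-fold higher in D-3 (0.92 ± 0.19 SE, adjusted p = 0.0107), without overlap and just under the 2-fold threshold, which it passed on the FPKM scale (1.14, adjusted p = 0.0106) and without D-3 replicate 2 (1.10, adjusted p = 0.00289). MT2A was 1.36-fold lower (-0.44 ± 0.13 SE, adjusted p = 0.0327) on the TMM scale, and -0.20 with an adjusted p of 0.357 on the FPKM scale. Leaving out a library raised its adjusted p above 0.05 in 5 of 6 fits, to at most 0.105. MT1E had an adjusted p of 0.12 (-0.28 ± 0.13 SE). Here 18.5% of 20231 genes were called, 35.5% had an adjusted p below 0.05, and 53.2% did not overlap.

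Against FIT, the tumor tissue that the study took as its control, none of the 3 members was called in D-2, D-3, DP-3 or IT, at backgrounds of 14.6%, 6.45%, 4.82% and 0.0% of genes called. At any fold, 30.9%, 8.29%, 8.4% and 0.0% of genes had an adjusted p below 0.05, and no member did. Without overlap were 49.9%, 32.4%, 34.1% and 20.6% of genes, and 1 member test, that of MT1X in D-3. These 4 comparisons and that of DP-3 day 1 share the FIT libraries. The largest member difference was that of MT1X in D-3, 2.49-fold higher (1.32 ± 0.37 SE, adjusted p = 0.0645) and all D-3 libraries above all FIT libraries. MT1X was called there with DESeq2 (adjusted p = 0.00583), without the filter on low genes (0.0252) and in the fit of all 18 libraries (0.0396).

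MT2A in DP-3 was 1.59-fold above FIT (0.67 ± 0.23 SE, adjusted p = 0.113), and its 95% interval ran from 1.15-fold to 2.18-fold. In D-2 it was 1.36-fold higher (0.45 ± 0.20 SE, adjusted p = 0.133), with an interval from 1.04-fold to 1.79-fold. In D-3 the MT2A interval was 0.748-fold to 1.42-fold. The MT1E intervals were 0.930-fold to 1.84-fold for printed tissue, 0.975-fold to 1.76-fold for 2D cells and 0.791-fold to 1.54-fold for 3D cells. A doubling of MT1E was thus outside these intervals, which are approximate (1.96 SE either side) and rest on 3 libraries a group.

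IT against FIT gave no call for any of 21183 genes by edgeR at these thresholds, while 2693 had an unadjusted p below 0.05, DESeq2 called 661 genes, and limma on log2(FPKM + 0.1) called 12. MT1X had a log2 difference of 1.02 ± 0.56 (SE, adjusted p = 0.512) and MT2A one of -0.09 ± 0.35 (adjusted p = 0.943). Both rested on IT replicate 3, without which they were 0.16 and -0.56. That library had 456 FPKM of MT2A against 216 and 215 in the others. MT1E did not share this pattern, with 71.6 FPKM there against 57.2 and 74.0. HSPA1A, a stress-induced chaperone, was also high in it (210 FPKM against 29.6 and 28.8), as was CEBPD (97.0 against 22.4 and 19.3).

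**Figure D3:**
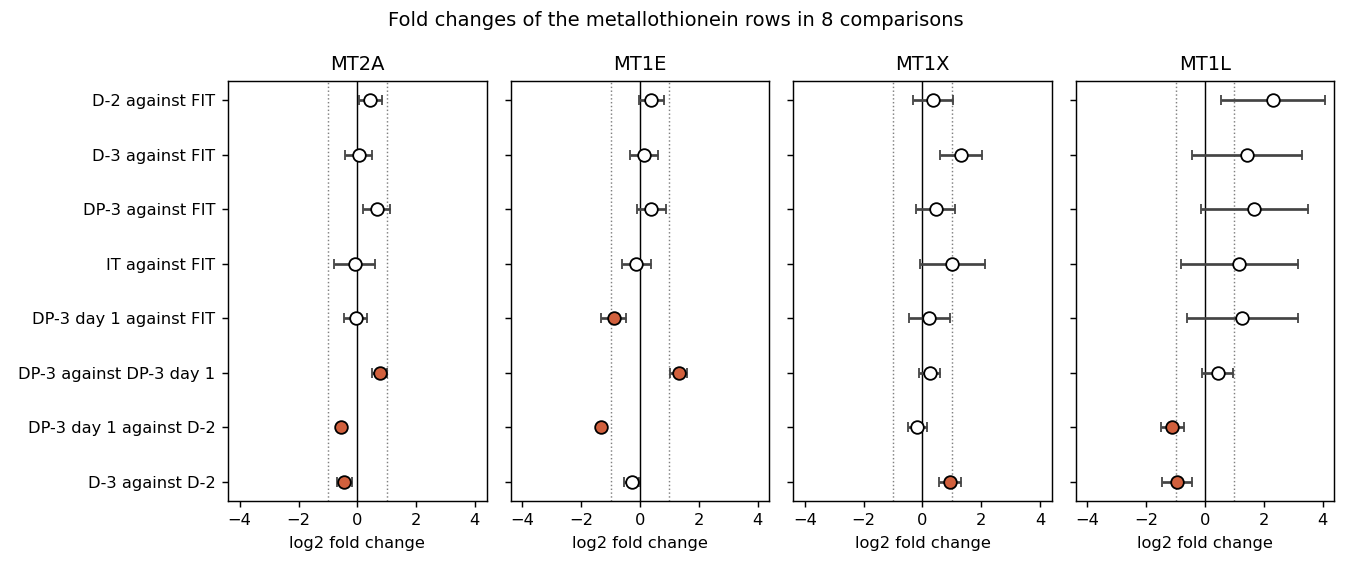
Log2 fold change (x axis) of MT2A, MT1E, MT1X and MT1L in the 8 comparisons (y axis), with 1.96 SE either side as bars (n = 3 per group). Filled points have an adjusted p below 0.05 and dotted lines mark 2-fold. MT1E lies past both thresholds for DP-3 against DP-3 day 1 (1.31) and DP-3 day 1 against D-2 (-1.33).

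Other metallothionein rows were mostly near 0. Of 15 listed, 7 had a row, and 6 of them (MT1HL1, MT1JP, MT1P1, MT1P3, MT1XP1 and MT2P1) never exceeded 1.304 FPKM. The exception was MT1L, a transcribed pseudogene, with 7.45, 6.25 and 7.27 FPKM in D-2, the highest group. It had 4.17, 3.64 and 5.09 FPKM in D-3, and means of 4.48 ± 0.795 in DP-3, 3.97 ± 0.482 in DP-3 day 1, 3.36 ± 0.942 in IT and 1.45 ± 1.25 in FIT (SD, n = 3), where replicate 3 was at 0. MT1L was 2.17-fold lower in DP-3 day 1 than in D-2 (-1.12 ± 0.20 SE, adjusted p = 0.00412), and 1.93-fold lower in D-3 (-0.95 ± 0.26 SE, adjusted p = 0.0283), a direction opposite to that of MT1X. The first was kept in only 4 of 10 other settings that used all libraries, with a log2 difference as small as -0.69 and adjusted p up to 0.201, and in all 6 that left out 1 library.

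MTF1, the metal-sensing factor, differed little between the groups, though its D-2 libraries (3.84 to 4.06 FPKM) lay below all others. Its means, from the highest, were 5.17 ± 0.672 FPKM in D-3, 4.98 ± 0.970 in FIT, 4.92 ± 0.238 in IT, 4.75 ± 0.0993 in DP-3 day 1, 4.57 ± 0.429 in DP-3 and 3.91 ± 0.125 in D-2 (SD, n = 3). It was called in none of the 8 comparisons, and its log2 differences lay between -0.19 and 0.21. SLC30A1, the zinc exporter that MTF1 controls, had means from 7.93 ± 0.697 FPKM in DP-3 to 11.2 ± 1.73 in D-3. It was also called in none, with log2 differences between -0.20 and 0.40. Only 10.3% of genes had a smaller ratio of highest to lowest group mean than MTF1, and 18.9% a smaller one than SLC30A1.

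Zinc exporters of the SLC30 family carry zinc out of the cytosol, and 8 of 10 were tested against FIT. SLC30A3, which loads zinc into vesicles, was higher in D-2 (1.91 ± 0.47 SE, adjusted p = 0.0222), D-3 (2.06 ± 0.52, 0.0497) and DP-3 day 1 (2.55 ± 0.46, 0.0182). Its level stayed low, at a mean of 0.916 FPKM in DP-3 day 1 against 0.147 in FIT. SLC30A10, which exports mainly manganese, was lower in D-2 than in FIT (-1.85 ± 0.44, adjusted p = 0.0193), at 0.0520 against 0.212 FPKM. All its D-2 libraries lay under the filter of 0.1 FPKM, so it was tested only through FIT, where it was higher. Its call is therefore no more than a description. The SLC30A3 calls were lost in 6 of 15 other settings in D-2, 9 of 15 in D-3 and 5 of 15 in DP-3 day 1. That of SLC30A10 was lost in 5 of 12, including all 3 fits without 1 library in which it was tested. No other exporter was called in any comparison. The median log2 difference of the exporters tested against FIT lay between -0.0043 in D-3 and 0.30 in D-2, where that of all genes was 0.02 and -0.09.

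Zinc importers of the SLC39 family bring zinc into the cytosol, and 11 of 14 were tested. SLC39A8, which carries zinc and manganese and can let in cadmium, was higher than in FIT in D-2 (1.29 ± 0.28, adjusted p = 0.0135), D-3 (1.504 ± 0.29, 0.021) and DP-3 (1.25 ± 0.29, 0.0415). Its 3 FIT libraries had 0.795, 1.14 and 1.70 FPKM, below all 15 others (2.13 to 3.70). SLC39A10 was 2.07-fold lower in D-3 than in D-2 (-1.05 ± 0.15, adjusted p = 0.00343), at 3.23 ± 0.577 against 5.61 ± 0.104 FPKM. That call was lost in 7 of 16 other settings, and those of SLC39A8 in 10 of 16 for DP-3, 4 of 16 for D-3 and 1 of 16 for D-2. Of 14 genes of copper handling, 13 were tested and none was called in any of the 8 comparisons. Of all genes, 0.0% (IT against FIT) to 18.5% (D-3 against D-2) were called. A call needs a 2-fold change, so smaller differences of the copper genes are not covered.

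A list of 16 heat shock and stress genes that heavy metals can induce held calls in both directions where MT1E was called. HMOX1, the heme oxygenase induced by cadmium, heme and oxidants, lay between 248 and 280.2 FPKM in the DP-3 day 1 libraries, against 28.98 to 35.7 in D-2. It was 6.39-fold higher (2.68 ± 0.096 SE, adjusted p = 1.76e-05), in the comparison in which MT1E was 2.51-fold lower. From day 1 to day 14 of the printed tissue HMOX1 was 3.70-fold lower (-1.89 ± 0.16, adjusted p = 0.00159) while MT1E was 2.49-fold higher. HSPA6, a strictly inducible heat shock protein, had 10.3, 9.42 and 8.76 FPKM in DP-3 day 1 and at most 3.69 in all other libraries. Its log2 difference from D-2 was 4.94 ± 0.18 (adjusted p = 1.76e-05). HSPA1A and HSPA1B, near-identical copies whose split of reads is uncertain, were higher in DP-3 day 1 than in D-2 by 5.52-fold and 5.26-fold.

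Of the 16 genes of the list, 4 were called higher (HMOX1, HSPA6, HSPA1A and HSPA1B) and 2 lower (the mitochondrial chaperones HSPD1 and HSPE1, as MT1E was) in DP-3 day 1 against D-2, where 17.2% of all genes were called. The median log2 difference was 0.14, beside 0.09 for all genes. In DP-3 against DP-3 day 1, 1 was higher (HSPA8, as MT1E was) and 2 were lower (HMOX1 and HSPA6), with a median of 0.09 beside -0.06, where 7.56% of all genes were called. In D-3 against D-2, where MT1X was higher, 2 were called higher (HMOX1 and HSPA6) and 2 lower (HSP90AA1 and HSPA8), with a median of -0.38 beside 0.11 for all genes and 18.5% of all genes called. HMOX1 was 3.35-fold higher there (1.75 ± 0.26, adjusted p = 0.00383). The levels of HMOX1 in DP-3 day 1 and D-3 (130.6 ± 44.7 FPKM) were the 2 highest group means, and in FIT the lowest (14.8 ± 6.42).

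Of the genes of a glucocorticoid response list, 11 of 12 were tested. In DP-3 day 1 against D-2, where MT1E was lower, 2 were called higher (TSC22D3 and ANGPTL4) and none lower. The median log2 difference was 0.49, beside 0.09 for all genes, of which 17.2% were called. In DP-3 against DP-3 day 1, where MT1E was higher, none was called higher and 3 lower, TSC22D3 and ANGPTL4 among them. The median there was -0.48, beside -0.06 for all genes, of which 7.56% were called. In D-3 against D-2, 5 were called higher and none lower, with a median log2 difference of 0.87 beside 0.11 for all genes, of which 14.6% were called higher. Among them TSC22D3 (GILZ) rose by 1.45 ± 0.15 (adjusted p = 0.00187), KLF9 by 1.40 ± 0.26 (0.0075), CEBPD by 1.29 ± 0.17 (0.0027) and ANGPTL4, a secreted lipase inhibitor, by 1.56 ± 0.27 (0.00623). In D-2 against FIT, 6 were lower and none higher, with a median of -1.46 beside -0.09 for all genes, of which 10.8% were called lower, and KLF9 was 4.58-fold lower (-2.20 ± 0.26, adjusted p = 0.00249).

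**Figure D4:**
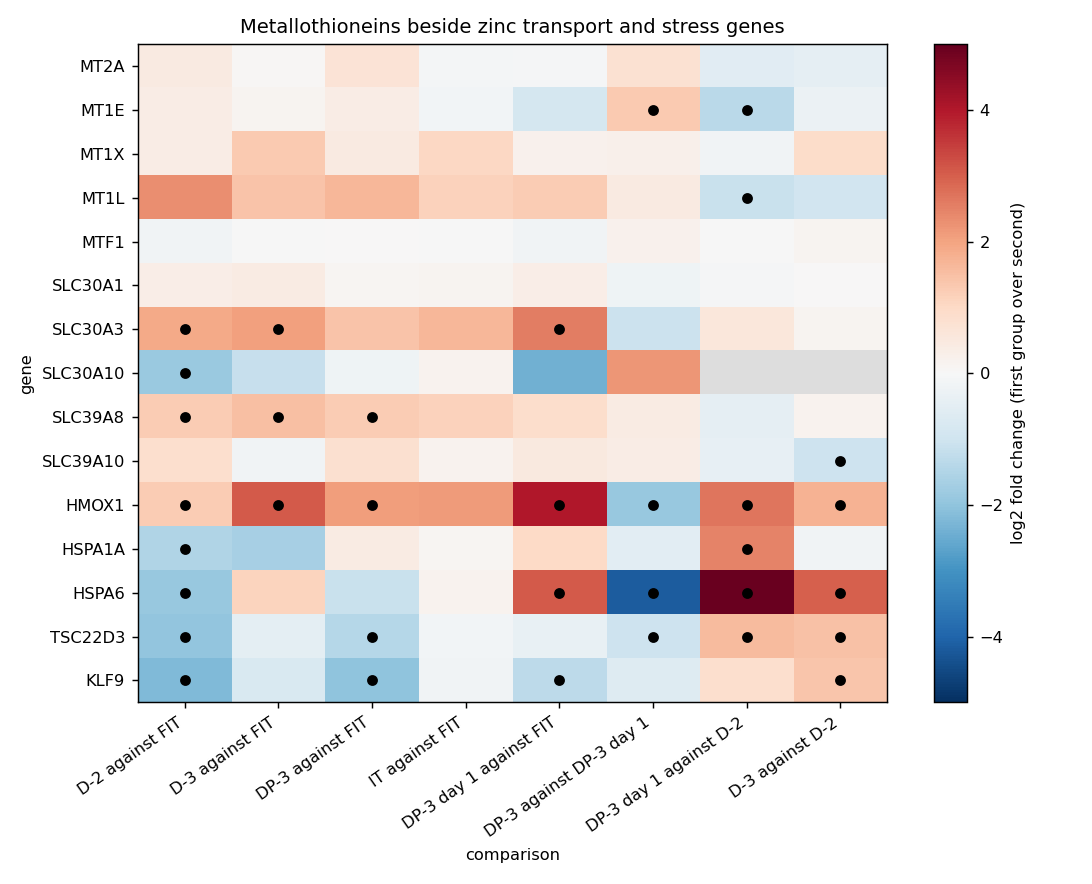
Log2 fold change (colour scale, red higher and blue lower in the first group named) of the metallothioneins and of named zinc transport, stress and glucocorticoid response genes (rows) in the 8 comparisons (columns). Black dots mark calls and grey cells were not tested. HMOX1 and HSPA6 are red and MT1E is blue for DP-3 day 1 against D-2, while MTF1 and SLC30A1 carry no dot.

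The genes whose profile over the 18 libraries was most like the summed metallothionein level, by Pearson's r of log2(FPKM + 0.1) among 12390 genes, were PRDX2 (r = 0.795), a peroxiredoxin, PID1 (0.781), FAM174C (0.771), SSR2 (0.765), a subunit of the translocon-associated complex, and POLR2C (0.734), a subunit of RNA polymerase II. These values are the highest of many, and the libraries share groups and depth. PRDX2 ranged from 29.5 to 47.2 FPKM while the summed metallothioneins ranged from 275 to 685.

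Sums of host cell markers differed between the groups, in both directions. The summed level of 7 endothelial markers was 3.92 to 6.08 FPKM in FIT and 4.31 to 6.58 in IT, against at most 2.42 in all culture groups, with 1 of the 7 (CLDN5) at 0 in D-2. PECAM1 (3.59 FPKM in FIT), CDH5 (0.656) and TEK (0.370) carried this difference, while EMCN was lower in FIT (0.0758) than in DP-3 (0.351) and VWF and KDR were at most 0.169 FPKM in any library. That of 6 fibroblast markers was 24.6 to 33.6 FPKM in FIT and 9.14 to 22.4 elsewhere, with IT (15.6 to 22.4) overlapping D-2 (16.8 to 19.2). PDGFRA (mean 21.7 FPKM in FIT) was the largest part of it, while LUM was lower in FIT (0.302) than in D-3 (0.735). Of 8 macrophage markers at most 2 reached a mean of 1 FPKM in any group, TYROBP was at 0 in all groups but DP-3 day 1, and the sum was 19.6 to 56.1 FPKM in FIT and 43.0 to 116.7 in the culture groups outside the tumors. CD68 (mean 39.5 FPKM in FIT and 42.4 in D-2) made up most of that sum. Muscle, adipocyte and red blood cell markers each summed to at most 8.71 FPKM in any library, a DP-3 value that was mostly FABP4. The muscle gene MYH2 had 3.61 FPKM in FIT replicate 3 and at most 0.0709 in any other library. The 6 keratinocyte markers, mostly KRT10, summed to 16.3 to 41.7 FPKM, and FIT (21.8 to 41.7) overlapped all groups but D-2. The part of host cells in the differences from FIT was not tested. In these bulk libraries fewer cells of a type and less RNA per cell cannot be told apart, nor can mouse reads that match human genes.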

How the data were processed

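Per the labels and the study's methods, poly(A) RNA of 18 libraries in 6 groups was sequenced in pairs of reads, filtered with cutadapt 1.9, aligned with HISAT2 2.0.4 and assembled with StringTie 1.3.4d. The authors deposited FPKM values, computed with StringTie, and estimated counts. How the counts were made, the genome build and the annotation are not given in the sources used here. Gene positions overlapped GENCODE release 29 for 99.81% of the 48223 genes found there. Of the low counts (1 to 100), 33.3% were multiples of 4, where 25% would be by chance, from which about 4 counts per read pair was taken. Library depth ran from 23721666 to 79082786 estimated counts, where 12 counts are 0.506 CPM and 0.152 CPM.

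The 6 libraries of a comparison were fitted by themselves with edgeR 4.0.16 in R 4.3.3: TMM scaling, estimateDisp, glmQLFit and glmQLFTest, on genes with at least 0.1 FPKM in at least 3 of 6 libraries. Adjusted p-values (Benjamini-Hochberg) are over all genes tested, and calls needed an adjusted p below 0.05 and a 2-fold change. SEs were derived from the F statistic. On simulated counts for D-3 against FIT the code recovered 160 of 200 changed genes, with 4 false calls among 21674 genes. The simulation gave every gene the same dispersion and placed changes well above 2-fold in well-counted genes only. It thus checks the code, and its rates do not carry over to the data.

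The members and gene lists were chosen with earlier results of these data known. Genes named beyond the members were MTF1, SLC30A1, up to 4 called genes per list with the smallest adjusted p, and the 5 with the highest correlation. Alternatives were DESeq2 1.42.0, limma 3.58.1 on log2(FPKM + 0.1), + 1 and + 0.01, RLE scaling, no filter, an FPKM minimum of 1, 1 fit of all 18 libraries, a replicate block and each library left out. Library totals without TMM was added after seeing the data.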

Additional observations from a re-analysis of the deposited data

Results flagged for a closer look

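The change from FIT in one group was set against that in another. The FIT term cancels, so these are the tests of DP-3 day 1 and D-3 against D-2 already given, with edgeR's quasi-likelihood test on the libraries of the 2 groups (n = 3 each). The change of MT1E in DP-3 day 1 minus that in D-2 was -1.33 on the log2 scale (adjusted p = 1.94e-05, lower in 3 of 3 libraries), that of MT2A was -0.56 (adjusted p = 0.00017, lower in 3 of 3) and that of MT1L was -1.12 (adjusted p = 0.00412, lower in 3 of 3). The change of MT1X in D-3 minus that in D-2 was 0.92 (adjusted p = 0.0107, higher in 3 of 3 libraries), that of MT2A was -0.44 (adjusted p = 0.0327, lower in 3 of 3) and that of MT1L was -0.95 (adjusted p = 0.0283, lower in 3 of 3). In the fit of all 18 libraries the adjusted p was 0.126 for MT2A and 0.201 for MT1L in DP-3 day 1 against D-2, and on the FPKM scale it was 0.357 for MT2A in D-3 against D-2. The groups have 3 libraries, too few for a search for single outlying libraries.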

How the results depend on the processing

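The MT1E calls of DP-3 against DP-3 day 1 and of DP-3 day 1 against D-2 held in all 16 other settings each, at log2 differences of 1.01 to 1.44 and of -1.39 to -1.002. No member was called in D-3 against FIT, but 1 (MT1X) was without a filter, with DESeq2 and in the fit of all 18 libraries. In DP-3 day 1 against FIT leaving out a library gave 0 to 1 calls, the 1 being MT1E without FIT replicate 3. In D-3 against D-2, 1 member (MT1X) was called at an FPKM minimum of 1, in the limma fits with 0.1, 1 and 0.01 added, and with library totals without TMM, and leaving out a library gave 0 to 1 calls, the 1 without D-3 replicate 2.

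Some differences near 0 changed sign. In DP-3 day 1 against FIT, MT2A was 0.088 in each of the limma fits with 0.1, 1 and 0.01 added and 0.029 with library totals. In DP-3 against DP-3 day 1, MT1X was -0.0066, -0.0070 and -0.0066 in those fits and -0.017 with library totals. In DP-3 day 1 against D-2, MT1X was 0.12, 0.11 and 0.12, and 0.12 with library totals. With each library left out, MT1E ran from -0.10 to 0.29 in D-3 against FIT and from -0.35 to 0.032 in IT against FIT. MT2A ran from -0.18 to 0.22 in D-3 against FIT, from -0.56 to 0.11 in IT against FIT and from -0.27 to 0.11 in DP-3 day 1 against FIT, where MT1X ran from -0.087 to 0.52. Without FIT replicate 3 the differences of MT1E (-0.10) and MT2A (-0.18) in D-3 and of MT1X (-0.087) in DP-3 day 1 turned negative, and that of MT2A in D-3 also did without D-3 replicate 2 (-0.017). The cause was not tested.

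The 39 calls of other named genes kept their direction in all 615 values, and 503 of these stayed calls. Counts over all genes in D-2, D-3, DP-3, IT and DP-3 day 1 against FIT were 2846, 1399, 965, 0 and 1101. They ran to 899, 721, 164, 0 and 517 in the setting with the fewest and to 3424, 2498, 1896, 661 and 1726 with DESeq2, which gave the most. Without 1 library they ran from 1755 to 2980, 240 to 1495, 90 to 1438, 0 to 1 and 384 to 1714. For DP-3 against DP-3 day 1, DP-3 day 1 against D-2 and D-3 against D-2 the counts were 1571, 3493 and 3746, the fewest 493, 915 and 1165 (limma with 1 added), and the most 2263, 4246 and 4250.

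Replicate numbers were not treated as pairs, since the correlation of same-numbered deviations lay between -0.0858 and 0.1105 and not all pairs of any comparison passed 0.1. With 3 libraries a group this cannot exclude pairing. In IT against FIT, where tumors were divided, these correlations were 0.0177 to 0.0625. There 2 of 3 libraries correlated best with their own number. With the replicate number as a block the calls over all genes, in the same order of comparisons, were 2177, 904, 164, 0, 656, 938, 2668 and 3134, and the MT1E calls held (1.29 and -1.33). The block changed no call of a member. In DP-3 day 1 against FIT and D-3 against D-2 all 3 libraries correlated best with their own number. At the depth reached, MT1A cannot be told from 0 in most libraries. The MT1F row was at 0 in 16 libraries, but it does not measure the usual MT1F mRNA.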
